A study of Mus musculus with 6 samples.

Results

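The early B cell development genes are 9 genes that developing B cells use in the marrow: *Rag1*, *Rag2*, *Dntt*, *Igll1*, *Vpreb1*, *Vpreb2*, *Vpreb3*, *Ebf1* and *Pax5*. They were chosen by symbol, and all 9 were found among the 55401 gene identifiers in the count tables, which were named by GENCODE M21 on GRCm38. RNA came from snap-frozen, pulverized whole tibias of *Osterix-Cre; Atrxf/y* mice (Atrx-cKO, 3 samples) and *Atrxf/y* mice (control, 3 samples), with 1 library of polyadenylated RNA per sample. The genotypes are those of males, the study's methods and results give an age of 8 weeks, and doxycycline was given until 3 weeks of age to hold back Cre recombinase. *Osterix-Cre* is a tet-off transgene driven by the *Osterix* (*Sp7*) promoter, which is active in preosteoblasts, and the floxed part of *Atrx* is exon 18. Control mice lacked the transgene, and none of the 6 samples came from mice with the transgene and intact *Atrx*. The labels do not say how the replicates were taken, so p-values measure the spread between these samples.

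B lymphocytes arise in the bone marrow from progenitors that commit to the lineage under the transcription factors EBF1 and PAX5. The RAG1 and RAG2 proteins cut immunoglobulin gene segments, terminal transferase (encoded by *Dntt*) adds bases to the cut ends, and the surrogate light chain, built from VPREB1 or VPREB2 with lambda 5 (encoded by *Igll1*), pairs with the first heavy chain to form the pre-B cell receptor. *Vpreb3* encodes a related protein of the precursor B cell secretory pathway. Marrow stromal and osteoblastic cells supply the growth signals for these steps, among them IL-7 and CXCL12. The comparison asks whether RNA of the early B cell genes differed in tibias of mice with Cre in preosteoblasts.

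*Vpreb1* and *Vpreb2* are near copies, and their sequence decides how far the reads of one can be told from those of the other. Their coding sequences in GENCODE M21 are each 429 bases long and were identical at 420 positions (97.9%), with 9 differing bases and no gap, and the longest identical run was 196 bases. All exons together cover 1199 bases for *Vpreb1* and 759 for *Vpreb2*, and the bases outside the coding sequence were not compared. The 90-base coding stretch with the most differences is shown for both genes, with the 5 differing bases in capitals. It lies at chr16:16868638-16868727 on the minus strand for *Vpreb1* and at chr16:17980949-17981038 on the plus strand for *Vpreb2* (GRCm38), and covers coding bases 298 to 387 of each.
Vpreb1: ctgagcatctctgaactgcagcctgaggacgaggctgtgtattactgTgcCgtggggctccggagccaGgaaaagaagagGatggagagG
Vpreb2: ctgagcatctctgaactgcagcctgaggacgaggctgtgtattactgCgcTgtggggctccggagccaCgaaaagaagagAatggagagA

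Between 50977777 and 70571655 reads were counted on genes per library, and a count of 0 in these libraries allows a level of up to 0.0425 to 0.0588 CPM (counts scaled to library size, a floor of 3 counts that covers counting error only). Of the reads in each table, 3.69% to 4.56% had no unique alignment and were counted on no gene. *Atrx*, counted over the whole gene in the whole tibia, was at 153, 166 and 171 CPM in Atrx-cKO and 174, 167 and 165 CPM in control replicates 1, 2 and 3, which does not separate the floxed exon or the *Osterix*-expressing cells and so gives no check of the labels. Control replicate 3 held far more skeletal muscle RNA than the rest, with a summed level of 8 muscle genes of 11010 CPM against 666 to 2199 CPM in the other 5 libraries. The labels name no batches.

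None of the 9 genes passed the test for a difference between genotypes. Counts were normalized by the TMM method and fitted with edgeR's quasi-likelihood test over 20636 genes. A gene counted as called where its log2 fold change was 1 or more in size and its p, adjusted by the Benjamini-Hochberg method over those genes, was below 0.05. By this rule 0 of the 9 were called higher, against 0.0145% of all genes tested, and 0 were called lower, against 0% of all genes tested. The adjusted p was at least 0.992 for each of the 9, and 0 of the 9 had an unadjusted p under 0.05. Of the 20636 genes tested, 328 with a fold change above 0 and 423 with one below 0 had an unadjusted p under 0.05. The 2 groups overlapped in all 9, where 8.31% of all tested genes had groups that did not overlap in either direction. The median log2 fold change of the 9 was 0.025, beside 0.0050 over all genes tested, with 6 above 0 and 3 below (*Rag1* and *Dntt*, among the 3, were above 0 when scaled by library size alone). DESeq2's test also called 0 of the 9, beside 10 higher and 13 lower among the 23938 genes for which it gave an adjusted p. The B lineage itself was present in every library, since *Cd79a* and *Cd79b*, which encode the signaling chains of the antigen receptor, lay between 22.9 and 51.4 CPM throughout. In whole tibia, fewer B cells and less RNA per B cell cannot be told apart.

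**Figure D1:**
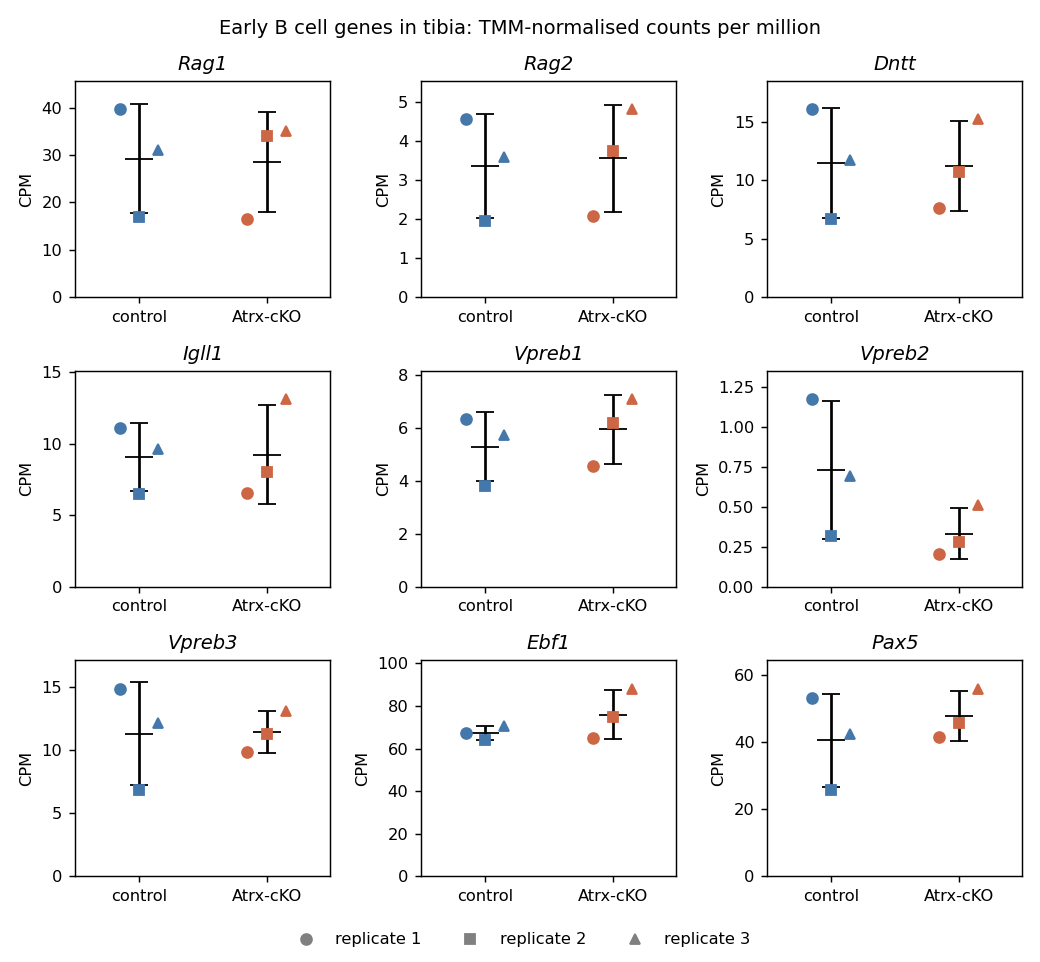
Level of each early B cell gene in TMM-normalised CPM (y axis, from 0) by genotype (x axis), with 1 point per library, its shape giving the replicate number, and the mean with SD in black (n = 3). In all 9 panels the 2 groups overlap, and control replicate 2 is the lowest control.

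*Rag1* (ENSMUSG00000061311, chromosome 2 from 101638282 to 101649501, minus strand) had 16.4, 34.0 and 35.1 CPM in Atrx-cKO replicates 1, 2 and 3, from 960, 1940 and 2067 counts, and 39.7, 16.8 and 31.2 CPM in the controls, from 2262, 1122 and 1483 counts. One library of each genotype, Atrx-cKO replicate 1 and control replicate 2, was therefore at about the same low level, and the other 4 lay between 31.2 and 39.7 CPM. The log2 fold change was -0.035 with a 95% interval from -0.88 to 0.81. *Rag2* (ENSMUSG00000032864, chromosome 2 from 101624718 to 101632529, plus strand), its neighbor and partner in the recombinase, had 2.09, 3.75 and 4.80 CPM in Atrx-cKO and 4.56, 1.94 and 3.57 CPM in control tibias. The same 2 libraries were lowest, and the log2 fold change was 0.082 (95% interval -0.82 to 0.98). The CPM ratio of *Rag1* to *Rag2* was 7.87, 9.07 and 7.30 in Atrx-cKO and 8.70, 8.70 and 8.72 in the controls, and the groups overlapped (exact two-sided permutation p = 0.4).

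*Dntt* (ENSMUSG00000025014, chromosome 19 from 41029275 to 41059525) had 7.65, 10.7 and 15.3 CPM in Atrx-cKO and 16.1, 6.67 and 11.7 CPM in control tibias. Again Atrx-cKO replicate 1 and control replicate 2 were the lowest of their groups. The log2 fold change was -0.034 (95% interval -0.85 to 0.78).

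The largest fold change among the 9 fell in the surrogate light chain genes, in their least abundant member, and did not pass the test. *Igll1* (ENSMUSG00000075370, chromosome 16 from 16860671 to 16863985) had 6.52, 8.02 and 13.1 CPM in Atrx-cKO and 11.1, 6.49 and 9.62 CPM in control, a log2 fold change of 0.025 (95% interval -0.66 to 0.71). *Vpreb1* (ENSMUSG00000059305, chromosome 16 from 16868403 to 16870843), on the same strand near it, had 4.57, 6.18 and 7.11 CPM and 6.35, 3.83 and 5.76 CPM, a log2 fold change of 0.17 (95% interval -0.40 to 0.73). The groups overlapped for both genes, with control replicate 2 the lowest of all libraries. *Vpreb2* (ENSMUSG00000059280, chromosome 16 from 17980428 to 17981273) had 12, 16 and 30 counts in Atrx-cKO and 67, 21 and 33 in the controls, or 0.205, 0.280 and 0.509 CPM against 1.17, 0.315 and 0.693 CPM. Its highest value was in control replicate 1, and Atrx-cKO replicate 3 lay above control replicate 2. The log2 fold change of -1.12 had a 95% interval from -2.44 to 0.19 (unadjusted p = 0.084 and adjusted p = 0.992 in edgeR's fit across all genes) and did not pass. *Vpreb3* (ENSMUSG00000000903, chromosome 10 from 75943057 to 75949657) had 9.82, 11.3 and 13.1 CPM in Atrx-cKO and 14.9, 6.85 and 12.1 CPM in control, a log2 fold change of 0.016 (95% interval -0.61 to 0.64).

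Since *Vpreb1* and *Vpreb2* are so alike, the share of *Vpreb2* among their joint counts was set out by library, a measure chosen after the values were seen. It was 4.30% (95% Wilson interval 2.48 to 7.37), 4.34% (2.69 to 6.93) and 6.68% (4.72 to 9.38) in Atrx-cKO replicates 1, 2 and 3, and 15.6% (12.5 to 19.4), 7.61% (5.03 to 11.4) and 10.7% (7.76 to 14.7) in the controls. The groups did not overlap, with means of 5.11% ± 1.36 for Atrx-cKO and 11.3% ± 4.03 for control (SD, n = 3 each), and the exact two-sided permutation p of 0.1 is the smallest that 3 against 3 can give. The interval of control replicate 2 overlapped those of all 3 Atrx-cKO libraries. Only reads that touch one of the differing bases, or lie outside the shared stretches, can be placed on one of the 2 genes. The strain background of the mice at these genes was not checked, and the part of bases that differ from the reference in the share was not tested.

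**Figure D2:**
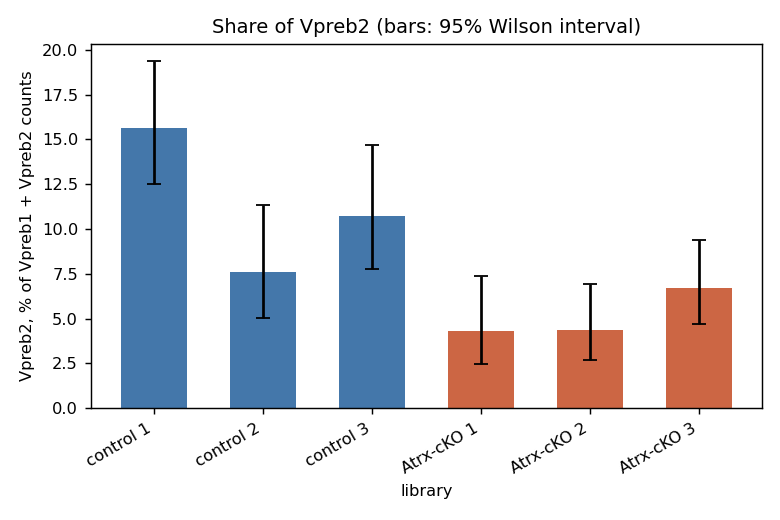
Counts on Vpreb2 as a percentage of the counts on Vpreb1 and Vpreb2 together (y axis) for each library (x axis), with 95% Wilson intervals that cover counting error only. The 3 Atrx-cKO libraries lie at 4.30% to 6.68% and the 3 controls at 7.61% to 15.6%.

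The transcription factors were the most abundant of the 9 in CPM. *Pax5* (ENSMUSG00000014030, chromosome 4 from 44524757 to 44710487), which keeps cells in the B lineage, had 41.5, 45.6 and 56.0 CPM in Atrx-cKO and 53.3, 25.9 and 42.6 CPM in control, a log2 fold change of 0.23 (95% interval -0.34 to 0.80). Control replicate 2 was again the lowest, and the other 5 libraries lay between 41.5 and 56.0 CPM. *Ebf1* (ENSMUSG00000057098, chromosome 11 from 44617317 to 45008091) had 64.9, 74.8 and 88.2 CPM in Atrx-cKO and 67.1, 64.1 and 70.4 CPM in control tibias. It varied least, since its 3 controls were within 64.1 to 70.4 CPM where those of *Pax5* covered a 2.06-fold range, and its log2 fold change of 0.18 had the narrowest 95% interval of the 9, from -0.091 to 0.44. *Ebf1* is also expressed by adipocytes and marrow stromal cells. Those lists, of 8 and 9 genes, had summed levels of 188 to 290 and 4210 to 4732 CPM in Atrx-cKO and 185 to 258 and 3610 to 4528 CPM in control, and their part in the *Ebf1* reads was not tested. Most of the stromal sum was *Cxcl12*, at 2760 to 3666 CPM per library.

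**Figure D3:**
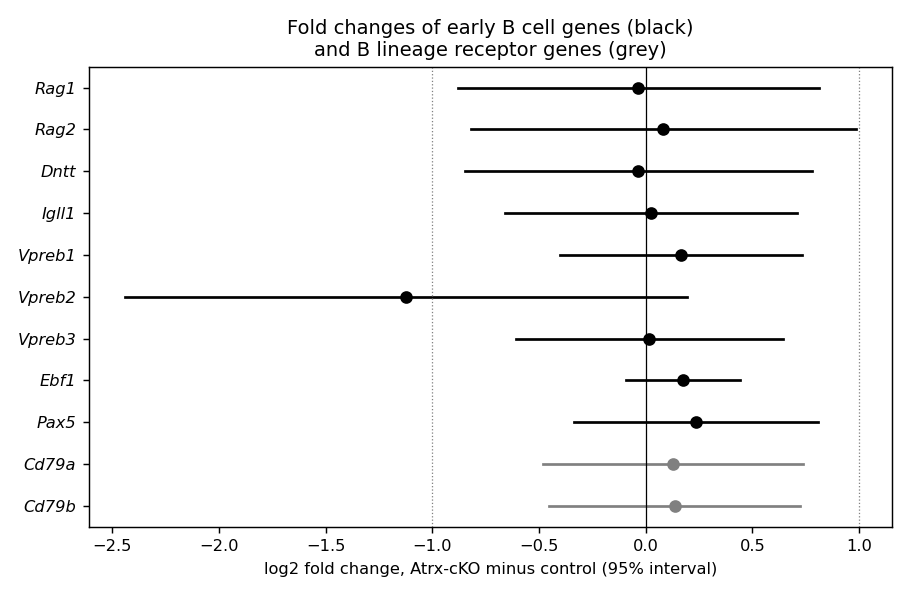
Log2 fold change (x axis, Atrx-cKO minus control) with its 95% interval from edgeR's quasi-likelihood fit for the 9 early B cell genes (black) and for Cd79a and Cd79b (grey). Dotted lines mark a log2 fold change of 1 in size. Each interval includes 0, and that of Ebf1 is the narrowest and that of Vpreb2 the widest.

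Several of these genes share exonic bases with another gene. *Rag1* shares 80 exonic bases (1.21%) with *B230118H07Rik* on the same strand, and *Rag2* shares 208 (6.08%) with it on the opposite strand. *Vpreb1* shares 108 (9.01%) with *Top3b*, and *Pax5* shares 636 (7.18%) with *5730488B01Rik* and 125 (1.41%) with *Gm12462*, all on opposite strands. The labels call the libraries strand specific, but the strand setting of the counting is not given in the sources used here. Reads from these stretches could be lost or counted on the wrong gene.

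Levels of different genes were compared per kilobase of exon (RPKM, TMM-normalized CPM divided by the length of all exons of the gene), over the 6 libraries. *Vpreb3* was highest at 13.2 ± 3.24 RPKM (SD, n = 6), followed by *Ebf1* at 7.34 ± 0.925 (SD, n = 6), and each was above the next gene in 6 of 6 libraries. *Pax5* (4.98 ± 1.21), *Dntt* (4.95 ± 1.68), *Vpreb1* (4.70 ± 1.01), *Rag1* (4.37 ± 1.49) and *Igll1* (4.23 ± 1.22; SD, n = 6 for each) differed by less than their spread. *Rag2*, at 1.01 ± 0.353 RPKM (SD, n = 6), was below *Igll1* in 6 of 6 libraries, and *Vpreb2*, at 0.698 ± 0.477 (SD, n = 6), was below *Rag2* in 5 of 6. Reads that align to both *Vpreb1* and *Vpreb2* were counted on no gene. The levels of *Vpreb1* and *Vpreb2*, and so their places in this order, may therefore be too low by an unknown amount. The exons of *Igll1* include a transcript with a retained intron, and on the 870 bases of its coding transcript it was at 10.5 RPKM, above *Vpreb1* (7.35) and *Pax5* (5.51) on the same scale, where *Ebf1* was at 12.0. *Cd79a* and *Cd79b*, which B cells keep throughout life, were at 27.0 ± 6.73 and 25.9 ± 6.42 RPKM (SD, n = 6).

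Libraries of 1 genotype differed widely in most of these genes. The SD of log2(CPM + 0.5) within groups was 0.62 for *Rag1*, 0.55 for *Dntt* and 0.54 for *Rag2*, and 0.16 for *Ebf1*. Among the 2949 tested genes with a mean level within 0.5 log2 units of that of *Rag1*, 99.2% had a smaller SD and the median SD was 0.13. *Cd79a*, at 0.43, was wider than 97.8% of the genes at its level. Relative to its own mean over the 6 libraries on the log2 scale, *Rag1* lay at -0.71 in Atrx-cKO replicate 1 and -0.68 in control replicate 2, and at 0.53 in control replicate 1.

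**Figure D4:**
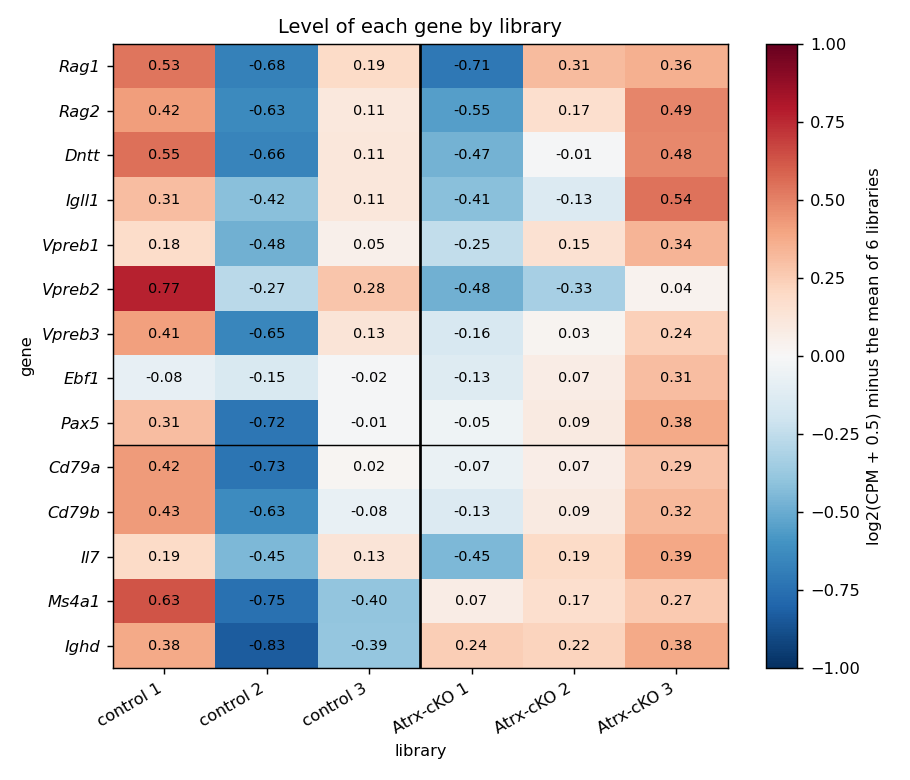
Log2(CPM + 0.5) of each gene (rows) in each library (columns), less its mean over the 6 libraries, with the value printed in each cell; a horizontal line separates the 9 early B cell genes from 2 B lineage receptor genes, Il7 and 2 mature B cell genes. Control 2 is below the mean in every row, and Atrx-cKO 1 is below it in the 9 early genes but above it for Ms4a1 and Ighd. Most of the mature B cell genes not shown were also above their mean in Atrx-cKO 1, but Fcrla was at -0.36 and Ighm, the most abundant, at -0.15.

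The early genes were then set against the B lineage as a whole, by taking the mean log2 level of *Cd79a* and *Cd79b* from that of each gene in the same library. The within-group SD fell from 0.40 to 0.054 for *Pax5*, from 0.41 to 0.064 for *Vpreb3* and from 0.62 to 0.32 for *Rag1*, and rose from 0.16 to 0.37 for *Ebf1*. *Pax5* differed by 0.092 between genotypes on this scale (exact two-sided permutation p = 0.2), with means of 0.25 ± 0.035 for Atrx-cKO and 0.16 ± 0.068 for control (SD, n = 3 each). *Rag1* stood at -1.05 in Atrx-cKO replicate 1 and between -0.44 and -0.20 in the other 5 libraries, and *Rag2* at -3.76 and between -3.32 and -3.13, and this library was also the lowest for *Dntt*, at -2.10 against -1.82 to -1.56, and for *Igll1*, at -2.32 against -2.22 to -1.75.

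The groups did not overlap on this scale for 2 of the 9 genes. Of all tested genes 1.05% had groups that did not, against 8.31% before the subtraction. The subtraction adds the spread of *Cd79a* and *Cd79b* to genes that do not follow them, and removes it from genes that do. The 1.05% is therefore not a like background for the 9. *Vpreb2* was lower in Atrx-cKO, at -5.63, -5.67 and -5.52 against -4.92, -4.85 and -4.95 in control, a difference of -0.71. The 0.5 CPM added to each level lessens a difference at its low counts, and also narrows the spread within each group. Its levels were 0.205 to 0.509 CPM in Atrx-cKO and 0.315 to 1.17 CPM in control, so the tight values here do not give its true spread. *Vpreb3* was at -1.76, -1.76 and -1.77 against -1.72, -1.68 and -1.54, a difference of -0.12. For both the exact two-sided permutation p was 0.1, the smallest possible with 3 against 3, or 0.45 after Benjamini-Hochberg adjustment over the 9 genes, so neither passed. The other 7 differed by -0.22 to 0.092, with exact permutation p from 0.2 to 0.9.

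**Figure D5:**
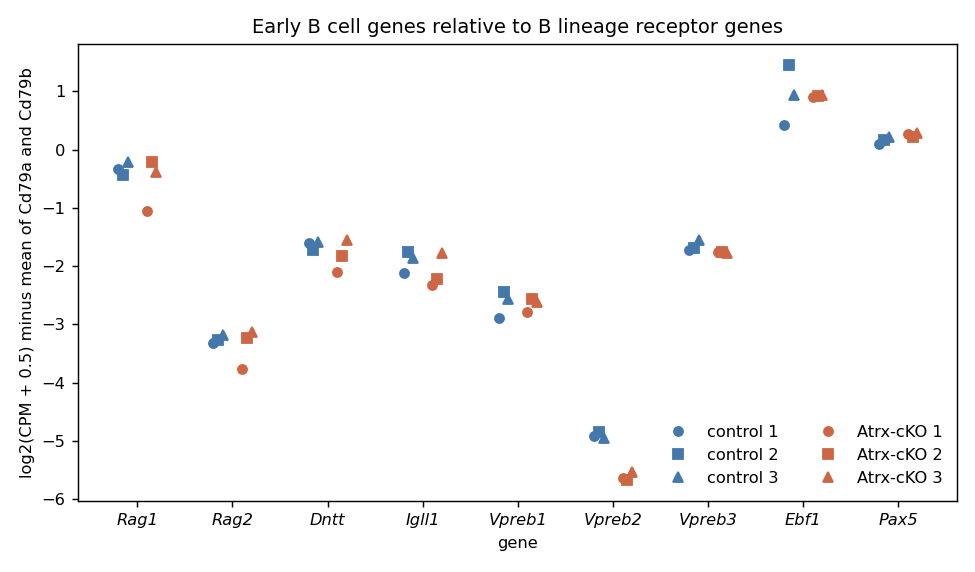
Log2(CPM + 0.5) of each early B cell gene less the mean of Cd79a and Cd79b in the same library (y axis), by gene (x axis), with 1 point per library, control in blue and Atrx-cKO in orange. The groups separate for Vpreb2 and Vpreb3, and Atrx-cKO 1 is the lowest point for Rag1, Rag2, Dntt and Igll1. The added 0.5 CPM narrows the spread of Vpreb2, which has low counts.

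Other genes of the pathway were taken from lists, and no gene of any list was called in either direction. Of 12 further pro-B and pre-B cell genes, 10 had a log2 fold change above 0 and the median was 0.076. *Il7r*, the receptor chain for IL-7, averaged 15.3 ± 3.37 CPM for Atrx-cKO against 12.4 ± 3.07 for control (SD, n = 3 each, log2 fold change 0.30, 95% interval -0.23 to 0.83). *Cd24a*, a surface protein also found on erythroid cells, was at 0.035, and *Sox4*, a transcription factor used by many cell types, was at -0.33 (95% interval -0.60 to -0.057, adjusted p = 0.992 in edgeR), with 118, 130 and 155 CPM in Atrx-cKO and 157, 169 and 179 CPM in control, groups that did not overlap. The 12 transcription factors of commitment and maturation had a median of 0.086, with *Ikzf1* at 0.16 and *Tcf3*, which encodes E2A, at -0.052. The 12 end joining factors and cofactors of V(D)J recombination had a median of 0.070, with *Hmgb2* at 0.23 and *Hmgb1* at 0.073, which encode DNA-bending proteins that help the RAG proteins bind and cut. In the 10 genes of pre-B cell receptor signaling the median was 0.14, with the kinases *Syk* at 0.12 and *Lyn* at 0.23.

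Later stages of the lineage were read from 10 mature B cell genes, with a median log2 fold change of 0.30, 9 of them above 0 and 0 called. *Ighm* was at -0.11 and *Cd72* at 0.049, the 2 most abundant, and *Ighd* had 19.5, 19.2 and 21.4 CPM in Atrx-cKO against 21.5, 8.98 and 12.4 CPM in control. Averaged over each list, log2 levels less their means were -0.36 for the early and 0.14 for the mature genes in Atrx-cKO replicate 1, and 0.11 and -0.24 in control replicate 3. The difference of early less mature was -0.50, -0.082 and 0.14 in Atrx-cKO replicates 1, 2 and 3 and 0.011, 0.077 and 0.35 in the controls, and the groups overlapped. Plasma cell genes, 7 of 8 tested, had a median of 0.029, with *Xbp1* at 0.095 and *Sdc1* at -0.26, and *Tnfrsf17* was too low to test.

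Among 9 stromal factors for B cell development the median was 0.015, and 0 were called. *Cxcl12*, the chemokine that holds B cell progenitors in the marrow, averaged 3522 ± 128 CPM for Atrx-cKO against 3113 ± 371 for control (SD, n = 3 each, log2 fold change 0.18, 95% interval -0.10 to 0.46), and *Vcam1*, an adhesion molecule of stroma and endothelium, was at 0.17. *Il7*, the growth factor of pro-B cells, was named after its values were seen. It had 7.34, 11.8 and 13.5 CPM in Atrx-cKO and 11.8, 7.34 and 11.3 CPM in control tibias. *Il7* was lowest in Atrx-cKO replicate 1 and control replicate 2, the libraries with the least *Rag1*, *Rag2* and *Dntt*. Among the other stromal factors *Vcam1* was also lowest in these libraries, and the rest were not. *Cxcl12*, for one, was lowest in control replicate 3, at 2760 CPM. A link of *Il7* with the B cell genes was not tested.

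Markers of other cells that can use some of the 9 genes were also measured. T cell and thymocyte genes summed to 30.4 to 34.0 CPM over 10 genes in Atrx-cKO and 34.3 to 42.3 CPM in control, or 27.5 to 29.3 and 25.6 to 33.7 CPM without *Cd3d*, with *Ptcra*, the defining gene of thymocytes that rearrange their receptor, at 0 counts in all 6 libraries. The median log2 fold change of the 9 tested was -0.0060, with 4 above 0 and 5 below. *Cd4* was at -0.22, *Cd3d* at -1.13 (95% interval -2.31 to 0.058, with groups that did not overlap) and *Cd3e* at 0.39, all uncalled. Plasmacytoid dendritic cell genes, of which 7 of 7 were tested, had a median of 0.11, with *Tcf4* at -0.061 and *Bst2* at 0.47 (95% interval 0.038 to 0.90, adjusted p = 0.992 in edgeR). The remaining lists had 0 called genes each, with medians of -0.27 for adipocyte genes (*Fabp4* 0.23, *Adipoq* 0.071), 0.21 for neutrophil genes (*Ngp* 0.20, *S100a9* 0.23), 0.083 for erythroid genes (*Hbb-bs* 0.22, *Hba-a1* 0.17), -0.20 for osteoblast and osteocyte genes (*Col1a1* -0.40, *Bglap* -0.21), 0.12 for proliferation genes (*Mki67* 0.14, *Top2a* 0.13) and -1.51 for skeletal muscle genes (*Myh4* -1.98, *Acta1* -1.63), a median that was 0.68 without control replicate 3. The averaged log2 level of the erythroid genes, less its mean, was 0.65, -0.59 and -0.30 in control replicates 1, 2 and 3, beside 0.38, -0.52 and 0.11 for the early B cell genes, and 0.23, -0.13 and 0.13 in Atrx-cKO beside -0.36, 0.037 and 0.35. Its part in the B cell values was not tested.

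Genes outside the lists were ranked by how closely their log2 levels followed the mean pattern of the 8 members other than *Ebf1* over the 6 libraries, as the root mean square difference in log2 units among 16029 genes with a mean of at least 1 CPM, for which the median was 0.40. The closest 10 were *Gm29358*, *Cecr2*, *Fam129c*, *Cacna1e*, *Gm13710*, *Gfra2*, *Gm45819*, *Gm17745*, *Chst3* and *Hist1h2ac*, at 0.094 to 0.14. The most abundant of them, *Cecr2*, had a mean of 47.0 CPM. Within the lists, *Irf4* at 0.074, *Bach2* at 0.11, *Pou2af1* at 0.13, *Il7* at 0.13 and *Cd79b* at 0.14, all but *Cd79b* named after their values were seen, were as close, and *Ebf1* was at 0.30. All points of this ranking are the same 6 libraries.

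The 250 bases before the RefSeq start site (GRCm38.p6) of the 9 genes were searched for short motifs. Those of *Rag1* and *Igll1*, the 2 with the most E-boxes among the stretches outside annotated exons, are shown with every match to the E-box CAGNTG, the kind of site that E2A proteins can bind, in capitals on either strand. That of *Rag1* lies at chr2:101649533-101649782 and that of *Igll1* at chr16:16863986-16864235, both on the minus strand, and each has 3 matches.
Rag1: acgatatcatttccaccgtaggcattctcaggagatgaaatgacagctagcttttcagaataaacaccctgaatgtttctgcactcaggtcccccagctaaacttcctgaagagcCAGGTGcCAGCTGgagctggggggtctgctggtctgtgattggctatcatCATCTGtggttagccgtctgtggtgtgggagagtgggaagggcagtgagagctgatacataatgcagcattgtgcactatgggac
Igll1: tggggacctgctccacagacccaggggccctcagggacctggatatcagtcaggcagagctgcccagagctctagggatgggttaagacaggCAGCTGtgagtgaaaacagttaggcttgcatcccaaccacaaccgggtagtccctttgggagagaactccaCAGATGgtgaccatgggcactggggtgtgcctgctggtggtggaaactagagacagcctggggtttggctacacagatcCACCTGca

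All 9 genes had at least 1 window of 250 bases, 10 windows in all, and some reach into annotated exons. On either strand, CAGNTG was found for 5 of the 9 (*Rag1*, *Igll1*, *Vpreb1*, *Vpreb2* and *Vpreb3*) and in 44.8% of the 32851 windows of the same length, the EBF core CCCNNGGG for 1 (*Igll1*) and in 11.8% of windows, the RUNX core TGTGGT for 4 (*Rag1*, *Igll1*, *Vpreb3* and *Ebf1*) and in 14.0%, and the Ikaros core TGGGAA for 3 (*Rag1*, *Vpreb2* and *Ebf1*) and in 21.6%. A match describes letters only and is no evidence of binding.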

How the data were processed

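For each library the authors deposited read counts that were not normalized, for 55401 Ensembl identifiers, and 5 summary entries, which were kept out of library sizes (reads on no feature were 51.6% to 52.4% of each table). Per the study's methods, library preparation and sequencing were done by GENEWIZ. The submitters' processing notes name GRCm38 and DESeq2, and the aligner and counting program are not given in the sources used here. GENCODE M21 named 55141 identifiers.

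Groups and replicate numbers were taken from sample titles. Counts were fitted with edgeR 4.0.16 in R 4.3.3 (TMM, filterByExpr at its defaults, glmQLFit and glmQLFTest, genotype alone), with Benjamini-Hochberg adjustment over the 20636 genes tested. All 9 genes passed the filter. Intervals are log2 fold changes with the fit's standard error and t quantiles. Ratios to *Cd79a* and *Cd79b* used log2(CPM + 0.5) and an exact permutation test, which cannot go below p = 0.1. The planned reference held a further gene, which is not reported here, and was reduced to these 2 after the data were seen. The fit was tested on simulated data. DESeq2 1.42.0, other scalings and filters, a replicate block and fits without each library served as alternatives.

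Named genes were the 9 members, *Cd79a* and *Cd79b*, the 2 most abundant genes of each other list and the 10 closest genes outside them. *Il7*, *Il7r*, *Ighd*, *Ms4a1*, *Fcrla*, *Irf4*, *Bach2*, *Pou2af1*, *Cd3e*, *Ptcra* and *Tnfrsf17* were named beyond this rule after their values were seen. Members and lists were chosen with earlier results of these data known. Libraries of 1 genotype differed by more than sampling noise (chi-square per degree of freedom 15.8 to 137) and counted as separate replicates.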

Additional observations from a re-analysis of the deposited data

How the results depend on the processing

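No early B cell gene and no gene of the other lists was called under any of the 13 alternatives run on the fits, and the lowest adjusted p of a member in any of them was 0.539, for *Pax5*. With the TMM values 3 genes were called higher and 0 lower over all genes tested. With DESeq2 these counts were 10 and 13. By edgeR they were 4 and 1 without a filter, 1 and 0 with at least 10 counts in every library, and 0 and 0 with the replicate block. The labels do not say whether equal replicate numbers pair the libraries. Correlations of deviations were -0.0032, 0.11 and -0.10 between equal numbers and -0.14 to 0.11 between unequal ones, which cannot decide it. With the replicate block the log2 fold change of *Dntt* was 0.0071. With library size alone *Rag1* was at 0.024 and *Dntt* at 0.022, and the medians of the end joining and plasma cell lists were 0.14 and 0.086. The plasma cell median was -0.047 without a filter and -0.049 in DESeq2. On coding transcript lengths, an alternative added after the data were seen, *Ebf1*, *Vpreb1* and *Igll1* had 12.0, 7.35 and 10.5 RPKM. The cause of these moves was not tested.

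In fits that each left out 1 library, 0 to 5 genes were called higher and 0 to 1 lower. Fold changes on the log2 scale ran from -0.32 to 0.25 for *Rag1*, -0.20 to 0.37 for *Rag2*, -0.32 to 0.29 for *Dntt*, -0.32 to 0.22 for *Igll1*, -0.025 to 0.32 for *Vpreb1*, -1.57 to -0.58 for *Vpreb2*, -0.25 to 0.27 for *Vpreb3*, 0.054 to 0.28 for *Ebf1* and -0.010 to 0.48 for *Pax5*. Relative to *Cd79a* and *Cd79b* the ranges were -0.39 to 0.036 for *Rag1*, -0.24 to 0.079 for *Rag2*, -0.33 to -0.053 for *Dntt* and -0.36 to -0.082 for *Igll1*. They were -0.16 to 0.064 for *Vpreb1*, -0.75 to -0.68 for *Vpreb2* and -0.15 to -0.066 for *Vpreb3*. For *Ebf1* the range was -0.28 to 0.24 and for *Pax5* 0.057 to 0.13. With 0.1 CPM added *Vpreb2* was at -1.05. With *Cd79a* alone as the reference *Pax5* was at 0.089 (exact two-sided permutation p = 0.1, the smallest possible). List medians ran from -0.020 to 0.27 for pro-B and pre-B cell genes, 0.036 to 0.12 for end joining, 0.077 to 0.69 for mature B cell, -0.052 to 0.023 for plasma cell, -0.084 to 0.19 for stromal, -0.11 to 0.24 for plasmacytoid dendritic cell, -0.37 to -0.014 for adipocyte, -1.99 to 0.68 for skeletal muscle, -0.084 to 0.23 for B cell transcription factor, 0.0029 to 0.30 for pre-B cell receptor signaling, -0.17 to 0.17 for T cell, 0.049 to 0.34 for neutrophil, -0.15 to 0.52 for erythroid, -0.36 to -0.098 for osteoblast and -0.034 to 0.30 for proliferation genes.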
